A study of Mus musculus with 4 samples.

Results

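The genes described here encode proteins of myelin and an enzyme that makes its main glycolipid. Myelin is the membrane that oligodendrocytes wrap around axons in the central nervous system. The genes were chosen by name, with earlier results of these data known, and the 8 genes were Mbp, Mog, Mag, Cnp, Mobp, Mal, Cldn11 and Ugt8a. All 8 were found, on 14 probe sets that the platform annotation pairs with 1 gene symbol, out of 12422 probe sets and 8251 named genes. Each probe set is a collection of short probes against a transcript. Of the mice, one group was Tg2576 (APPSw), transgenic for amyloid precursor protein bearing the Swedish mutation, with 2 arrays, and the other was nontransgenic (C57B6/SJL), with 2 control arrays. Every array held total RNA of the left hippocampus of a male aged 12 months, and the labels name no treatment in either group. In the Tg2576 line the transgene is driven by a hamster prion protein promoter, and the labels do not give the background strain of the transgenic animals. Whether the arrays of a group come from separate litters is not given, so p-values measure only the spread between these arrays, which may be technical.

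Compact myelin is built from stacked membrane layers whose cytoplasmic faces are held together by basic proteins and whose lipid is rich in galactosylceramide. Non-compacted loops, the outermost sheet and the sheet facing the axon carry other proteins, among them enzymes and adhesion molecules. In the hippocampus myelin is found mainly in the fimbria and alveus and along axons within the layers. In whole tissue, fewer oligodendrocytes and less RNA per oligodendrocyte cannot be told apart.

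Signals are MAS 5.0 intensities on a linear scale, scaled by the authors to a target of 2500 on each array. Median signals were 1033 and 1013 on APPSw arrays 1 and 2, and 926 and 988 on control arrays 1 and 2. The ratio of the 3' to the 5' control probe set for Gapdh, a sign of RNA integrity, was 0.93 and 0.83 on APPSw arrays and 0.91 and 0.86 on control arrays. APPSw 1 stood apart in markers of choroid plexus epithelium. All 10 neuronal marker genes measured passed the filter on low signals. The endogenous App probe set had 96435 and 83384 in APPSw mice and 84901.0 and 94877 in controls, and the place of its probes against the transgene is not given, so it does not check the labels.

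Myelin probe sets had mostly lower signals in APPSw than in control hippocampus, by small amounts, and none passed the test. Of the 14, 12 had a log2 difference (APPSw minus control) below 0 and 2 above, while 43.7% of all 12422 probe sets lay below 0. The median over the 14 was -0.26 (a difference of -16.8%), against 0.058 over all probe sets. The test was limma on log2 signals, adjusted by Benjamini-Hochberg over the 7453 probe sets that had a mean log2 signal at or above the 40th percentile, a geometric mean of 565. Of the 14 myelin probe sets 12 passed that filter, of 7 genes, and Cnp and the dimmer Cldn11 probe set did not. Past the filter, 11 of the 12 lay below 0, with a median of -0.26, against 3526 of all 7453, with a median of 0.018. At an adjusted p under 0.05, 0 of the 12 were called, as were 0% of all 7453, and the lowest adjusted p of the 12 was 0.599. At an unadjusted p under 0.05, 1 of the 12 was lower, against 3.33% of all, and 0 were higher, against 4.72%. With 2 arrays a group, an exact permutation test of a single value cannot give a two-sided p below 0.333.

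**Figure D1:**
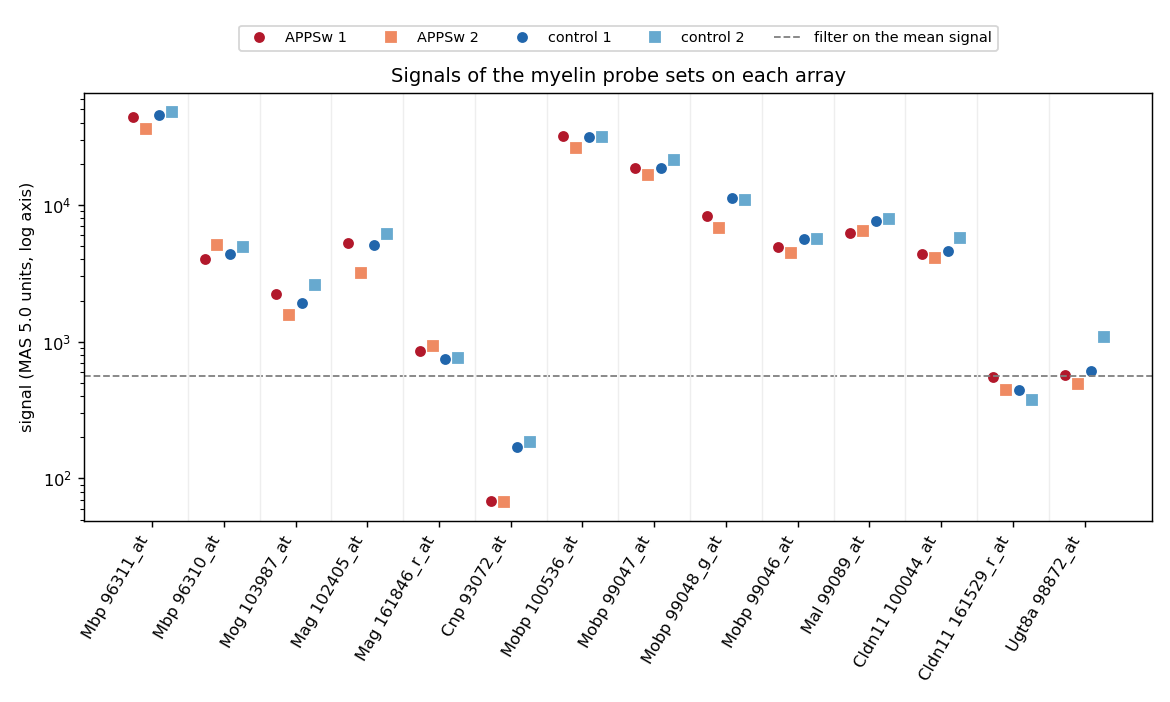
Signal on each array (MAS 5.0 units, log axis) for the 14 myelin probe sets, with APPSw arrays in red and orange and control arrays in blue, and the filter at a geometric mean of 565 as a dashed line. The 2 APPSw points lie below both control points for 7 probe sets and above both for 2, and Cnp lies far under the line.

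Mbp encodes myelin basic protein, which binds the cytoplasmic membrane faces and is needed for their compaction. Its brighter probe set, 96311_at, had 43884 and 36276 in APPSw mice, against 45424 and 47894 in controls. Both APPSw arrays lay below both controls, APPSw 1 only narrowly, and the log2 difference was -0.23 (limma SE 0.19, adjusted p = 0.739). The other Mbp probe set, 96310_at, had 4022 and 5089 in APPSw mice and 4349 and 4964 in controls. Its groups overlapped, with the APPSw arrays the lowest and the highest of the 4, and its difference was -0.038 (SE 0.20, adjusted p = 0.970 by limma). The 95% interval of limma, -0.69 to 0.24 for the brighter and -0.54 to 0.46 for the other, leaves room for a lower or a higher level in APPSw mice.

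Mobp encodes a small basic protein that lies, like myelin basic protein, between the cytoplasmic faces of compact myelin. It had 4 probe sets, the most of any of the genes, and all 4 differences were below 0. The brightest, 100536_at, had 31884 and 26173 in APPSw mice and 31428 and 31223 in controls. APPSw 1 was level with the controls and only APPSw 2 was lower, a log2 difference of -0.12 (SE 0.19). Probe set 99047_at had 18753 and 16710.0 in APPSw mice and 18619 and 21281 in controls, again with overlap, a difference of -0.17 (SE 0.18).

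Probe set 99048_g_at, which the annotation pairs with the same transcript record as 99047_at, gave another picture of Mobp. It had 8265 and 6753 in APPSw mice, against 11222 and 10913 in controls. The controls were close to each other and both APPSw arrays lay below them, a log2 difference of -0.57 (SE 0.19, 95% interval -1.03 to -0.10). This was the single myelin probe set with an unadjusted p under 0.05, which was 0.025 by limma (adjusted p = 0.599). Probe set 99046_at had 4904 and 4426 in APPSw mice and 5641 and 5672 in controls, without overlap, a difference of -0.28 (SE 0.17, limma adjusted p = 0.656). The 4 probe sets spanned 0.45 in log2, and on them control 1 minus control 2 ranged from -0.19 to 0.040.

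The start regions of Mobp and Mal are shown because both genes had low signals on both APPSw arrays by at least 1 probe set, and because they differ in a short word. Low signals on both APPSw arrays were also seen for Mbp, Cnp, Cldn11 and Ugt8a. Whether the word goes with the signals was not tested. The sequences are those of RefSeq on GRCm38.p6, from 250 bases before to 50 after the annotated start, and 7 of the 8 genes had an entry, with 9 windows in all. Capitals mark ACAAAG or its reverse complement CTTTGT, a core of the site bound by SOX factors, the family of the oligodendrocyte regulator SOX10.
Mobp, chr9:120149492-120149791, plus strand: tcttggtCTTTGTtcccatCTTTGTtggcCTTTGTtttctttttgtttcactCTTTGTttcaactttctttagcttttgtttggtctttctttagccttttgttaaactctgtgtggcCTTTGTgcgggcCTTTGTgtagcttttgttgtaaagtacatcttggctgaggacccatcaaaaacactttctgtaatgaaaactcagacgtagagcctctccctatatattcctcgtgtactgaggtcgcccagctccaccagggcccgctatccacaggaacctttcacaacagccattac
Mal, chr2:127656646-127656945, minus strand: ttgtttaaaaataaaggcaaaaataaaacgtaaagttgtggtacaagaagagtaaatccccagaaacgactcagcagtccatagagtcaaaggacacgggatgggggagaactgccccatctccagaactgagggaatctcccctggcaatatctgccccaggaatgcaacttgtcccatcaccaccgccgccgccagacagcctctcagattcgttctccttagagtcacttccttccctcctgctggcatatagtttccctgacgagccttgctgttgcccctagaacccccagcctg
The Mobp window holds 6 copies, all written CTTTGT on the gene's strand, starting between bases -243 and -120 from the start. Of 32851 such windows in the table, 1 holds 6 or more, the Mobp window itself. At least 1 copy on either strand was in 18.7% of all windows and in 4 of the 9 windows of these genes, belonging to Mag, Mobp and Cnp. The 2 Mag windows among them overlap and hold the same copy. The related word ACAATG (12.6% of all windows) and the E-box words CAGCTG (16.3%) and CATCTG (17.2%), each searched on both strands, were in 0 of the 9. A match of letters is a description and not evidence of binding, and copies that overlap were each counted.

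Cnp encodes the cyclic nucleotide phosphodiesterase of non-compacted myelin. Its only probe set had 68.6 and 67.6 in APPSw mice, against 170.0 and 184.4 in controls. The groups did not overlap and the difference of -1.38 was the furthest from 0 of the 14, but these signals lie at the 13.5th percentile of all probe sets. Under the filter the probe set was not tested. Tested with no filter, limma gave an SE of 0.19, an unadjusted p of 0.0023 and an adjusted p of 0.466. With 250 added to each signal the difference was -0.43, and after raising signals under 250 to that floor it was 0. Present and absent calls were not used here, so whether this probe set read its transcript on any array was not tested.

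Mag and Mog encode immunoglobulin-type surface proteins, Mag on the innermost sheet facing the axon and Mog on the outermost surface of the sheath. Mag had 5278 and 3163 in APPSw mice by its brighter probe set, 102405_at, and 5088 and 6153 in controls. APPSw 1 lay between the controls, APPSw 2 lay well below them, and the difference was -0.45 (SE 0.29, adjusted p = 0.664 by limma). Mog had 2232 and 1569 in APPSw mice and 1919.6 and 2578 in controls. APPSw 1 again lay between the controls with APPSw 2 lowest, a difference of -0.25 (SE 0.26, limma adjusted p = 0.788). Against the control mean, Mag was -0.084 on APPSw 1 and -0.82 on APPSw 2, and Mog 0.0048 and -0.50. For both genes the gap between the APPSw arrays, 0.74 and 0.51, exceeded the group difference.

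The dimmer Mag probe set, 161846_r_at, went the other way. It had 861.0 and 933 in APPSw mice and 744 and 759 in controls, higher without overlap, a difference of 0.25 (SE 0.17, limma adjusted p = 0.679). The second probe set of the 14 above 0 was the dimmer one of Cldn11, 161529_r_at, with 547 and 441 in APPSw mice and 440.1 and 374 in controls, a difference of 0.28. It was under the filter and was not tested. Both carry the letter r in their identifier, the maker's mark for probe sets built with relaxed selection rules, and 0 of the other 12 lay above 0. Among all probe sets, 66.8% of the 901 probe sets with that letter lay above 0, against 54.1% of the 9614 with no letter, and their median differences were 0.22 and 0.036. Past the filter, where the Mag probe set lies, the shares above 0 were 73.7% of 357 and 49.9% of 6060. Mobp 99048_g_at, the single myelin probe set with an unadjusted limma p under 0.05, also carries a letter, g. Among the 10 tested myelin probe sets with no letter, 0 had an unadjusted limma p under 0.05.

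Mal and Cldn11 encode proteins that cross the membrane 4 times, Mal a proteolipid of lipid rafts in myelin and Cldn11 the claudin of the tight junction strands between myelin layers. Mal averaged 6326 ± 139.7 in APPSw mice and 7729 ± 184 in controls (SD, n = 2 each), with 6227 and 6424 in APPSw mice and 7599 and 7859 in controls. The arrays of each group were close to each other and the groups lay apart. Its log2 difference was -0.29 (SE 0.17, limma adjusted p = 0.642, 95% interval -0.70 to 0.12). It stayed between -0.31 and -0.26 with any array left out, the narrowest range of the tested myelin probe sets. Cldn11 had 4356 and 4108 in APPSw mice by its brighter probe set, 100044_at, and 4619 and 5721 in controls. The groups did not overlap, control 1 minus control 2 was -0.31, and the group difference was -0.28 (SE 0.19, limma adjusted p = 0.685).

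Ugt8a encodes the enzyme that makes galactosylceramide, the main glycolipid of myelin. It had 569 and 490.1 in APPSw mice and 608 and 1091 in controls. Both APPSw arrays lay below both controls, but control 1 was close to APPSw 1 and control 2 stood well above. The difference was -0.63 (SE 0.31, limma adjusted p = 0.616), and control 1 minus control 2 was -0.84. Without control 2 it was -0.20 and without control 1 it was -1.05. Its mean signal, 656 as a geometric mean over the 4 arrays, was the closest to the filter among those that passed.

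**Figure D2:**
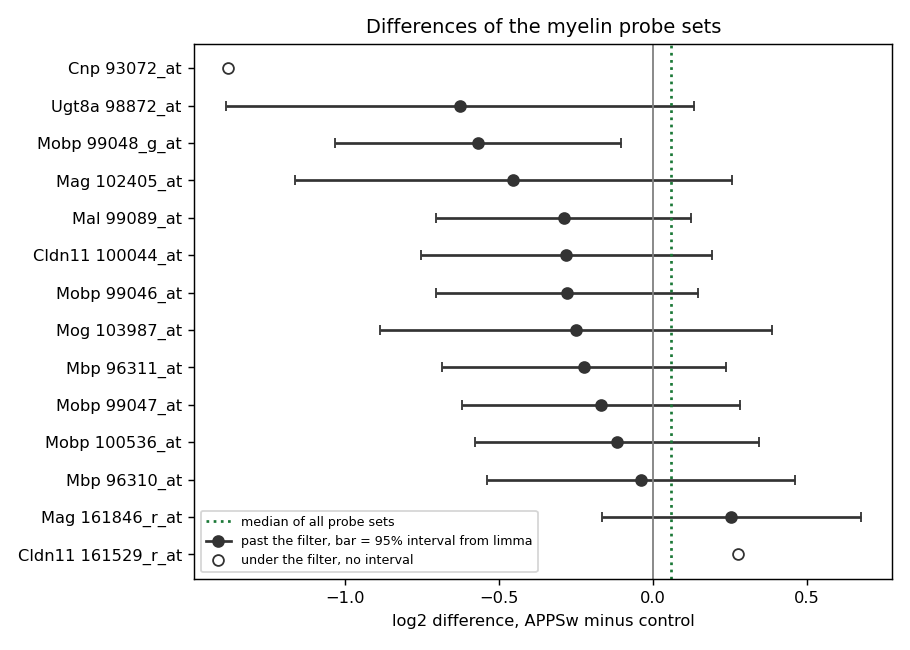
Log2 difference (APPSw minus control) of each myelin probe set, ordered from the lowest, with the 95% interval from limma for the 12 that passed the filter and open points without an interval for the other 2. The interval of Mobp 99048_g_at is the only one that lies wholly below 0, and the dotted line marks the median of all probe sets, 0.058.

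Both APPSw arrays lay below both controls for 7 of the 14 probe sets, against 15.7% of all probe sets, and above both for 2, against 23.6%. The 7 were Mbp 96311_at, Cnp, Mobp 99048_g_at and 99046_at, Mal, Cldn11 100044_at and Ugt8a. Past the filter, 6 of 12 lay below both controls, against 1416 of all 7453, and 1 lay above both, against 1654. By the brightest probe set of each gene, 8 of 8 differences were below 0, with a median of -0.29. Of these 8 probe sets 7 passed the filter, and Cnp, which did not, had a difference of 0 with the floor of 250. For 5 of the 14 the group difference was larger in size than both differences within a group, in either direction, against 25.9% of all probe sets. Of these 5, Cnp, Mobp 99048_g_at, Mobp 99046_at and Mal were lower in APPSw mice, and Mag 161846_r_at was higher. The myelin probe sets share their arrays and many share a gene, so the counts are not independent, and no test of the set was made.

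The arrays did not contribute equally. APPSw 2 was the lowest of the 4 arrays for 10 of the 14 probe sets, against 24.3% of all probe sets, and control 2 the highest for 9, against 23.1%. APPSw 1 lay below both controls for 8, against 30.3% of all probe sets, and APPSw 2 for 11, against 31.6%. The median difference from the control mean was -0.15 on APPSw 1 and -0.34 on APPSw 2. Control 1 lay below control 2 for 11 of the 14 (53.6% of all probe sets), by a median of -0.097 (control 1 minus control 2), and APPSw 2 lay below APPSw 1 for 11 (51.2% of all), by a median of 0.19 (APPSw 1 minus APPSw 2). The median of the 14 was -0.15 without APPSw 2 and -0.16 without control 2, against -0.34 without APPSw 1 and -0.30 without control 1. Their order, from the lowest, was APPSw 2, APPSw 1, control 1 and control 2. After centring, the medians of the middle pair were -0.034 and 0.026.

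**Figure D3:**
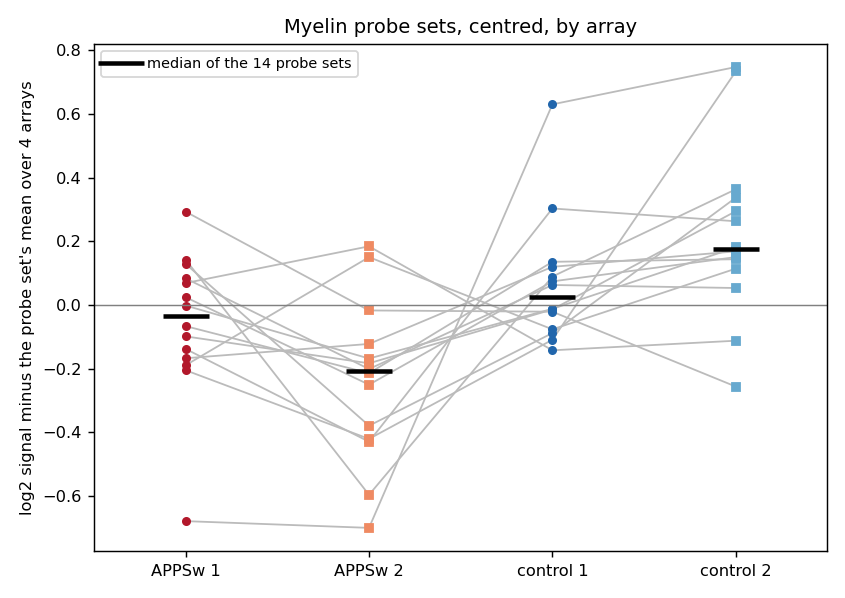
Log2 signal of each of the 14 myelin probe sets minus its own mean over the 4 arrays, with a grey line for each probe set and a black bar for the median on each array. The bars lie at -0.034 on APPSw 1, -0.21 on APPSw 2, 0.026 on control 1 and 0.17 on control 2, and the points of APPSw 1 and control 1 largely overlap.

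Other genes of myelin and mature oligodendrocytes had differences on both sides of 0. Of 30 listed, 11 were measured, with 7 differences below 0 and 4 above and a median of -0.054. The 8 past the filter were tested by limma, and 0 passed in either direction. By the brightest probe set, these 8 were Septin4 (-0.32), Qdpr (-0.29), Gsn (-0.24), Anln (-0.21), Evi2a (-0.054), Car2 (-0.0059), Gamt (0.11) and Cryab (0.23). Gjb1, Gpr37 and Klk6 were under the filter, Klk6 with signals of 34.6 to 106.6 and a difference of 0.53. Of the 11, 3 had both APPSw arrays below both controls and 1 above. Qdpr, a pteridine reductase abundant in oligodendrocytes, had 25936 and 23938 in APPSw mice and 30022 and 30871 in controls, a difference of -0.29 (SE 0.17, limma adjusted p = 0.648). Gpr37, a receptor of maturing oligodendrocytes, had 59.4 and 122.6 in APPSw mice and 143.8 and 194.2 in controls, signals far under the filter. At the upper end, Gjb1, a gap junction protein of oligodendrocytes, differed by 0.32 under the filter, and the small heat shock protein gene Cryab by 0.23 (SE 0.23) by its brighter probe set. Like the myelin probe sets, this list had its median lower on APPSw 2 (-0.20 from the control mean) than on APPSw 1 (0.076), and its sign was not stable. Without control 1 its median was -0.26 and without APPSw 1 it was -0.20, against 0.068 without control 2 and 0.076 without APPSw 2.

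Transcription factors of the oligodendrocyte lineage had a median of -0.15 over 9 measured genes of 14 listed, with 6 below 0 and 3 above, and 0 passed. Nkx6-2, a homeodomain factor of maturing oligodendrocytes, had 946 and 1065 in APPSw mice and 1471 and 1158 in controls, a difference of -0.38 (SE 0.20, limma adjusted p = 0.624). Hes5, a Notch target, differed by -0.42 (SE 0.24) by its brighter probe set and by 0.83 by a probe set under the filter. Nkx2-2, another homeodomain factor of the lineage, differed by 0.16 (SE 0.23), and Id2, an inhibitor of differentiation, by 0.10 (SE 0.18).

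Sox10, the SOX factor that drives oligodendrocyte maturation and myelin gene transcription, is named after its values were seen. By its brighter probe set, 102856_at, it had 5200.2 and 2329.8 in APPSw mice and 4279 and 6047 in controls. Like Mag and Mog it had APPSw 1 between the controls and APPSw 2 lowest, a difference of -0.55 (SE 0.41, limma adjusted p = 0.715). By its dimmer probe set, 100283_at, it had 745 and 256 in APPSw mice and 1056 and 1745 in controls, without overlap, a difference of -1.64 (SE 0.53, limma adjusted p = 0.599).

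Precursor markers had a median of -0.11 over 4 measured genes of 12 listed, and 0 passed. Pdgfra, the growth factor receptor that marks precursors, differed by -0.19 (SE 0.20) by the brightest of its probe sets, and the others gave 0.45 and 2.05, the last with all 4 signals under the filter. Vcan, a matrix proteoglycan, differed by -0.20 (SE 0.23), Ptprz1, a receptor phosphatase, by -0.033 (SE 0.20), and Bmp4, a morphogen, by 0.22 (SE 0.17).

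Among 11 measured genes of 18 listed for signals that reach oligodendrocytes, the median was 0.074, and 0 of the 9 past the filter passed the test. Lpar1, a lysophosphatidic acid receptor of myelinating cells, had 1644 and 1251 in APPSw mice, against 2156 and 3050.3 in controls. The groups did not overlap, and the difference of -0.84 (SE 0.25) had an unadjusted limma p of 0.017 and an adjusted p of 0.599. Notch1, a receptor that holds precursors back, had a difference of -0.48 (SE 0.60) by the brighter of its probe sets, with 3055 on APPSw 1 and 804 on APPSw 2, against 2010.0 and 2378 in controls. Its other probe set, 162204_r_at, differed by 0.32 (SE 0.17), with both APPSw arrays above both controls. Pdgfb, a growth factor, differed by 0.40 (SE 0.20), and Fgf2, another growth factor, had signals from 12.5 to 127.1, far under the filter.

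Genes that make or break down the sphingolipids of myelin had a median of 0.030 over 10 measured of 17 listed, with 0 passing. Psap, whose product activates lysosomal lipid hydrolases in many cell types, had 38898 and 34773 in APPSw mice and 21759 and 29903 in controls, a difference of 0.53 (SE 0.22, limma adjusted p = 0.612), while its other probe sets gave 0.27 and 0.51. Elovl1, an elongase of very long fatty acids, differed by 0.43 (SE 0.21). Galc, which degrades galactosylceramide, differed by -0.22 (SE 0.27), and Cers2, a ceramide synthase, by -0.23 (SE 0.26). Ugt8a, the enzyme ahead of Galc in this pathway, had a difference of -0.63 beside a list whose median was near 0.

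On the axon side of nodes and paranodes, 7 of 12 listed genes were measured, with a median of 0.11 and 0 passing. Kcna1, a potassium channel of the juxtaparanode beneath the myelin sheath, had 9087 and 6720.4 in APPSw mice and 2673 and 3290.2 in controls, a difference of 1.40 (SE 0.23, limma adjusted p = 0.599). Cntn1, an adhesion protein of the paranode, differed by 0.24 (SE 0.19), Cntnap1, its partner there, by -0.28 (SE 0.26), and Scn8a, the nodal sodium channel, by -0.22 (SE 0.18).

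**Figure D4:**
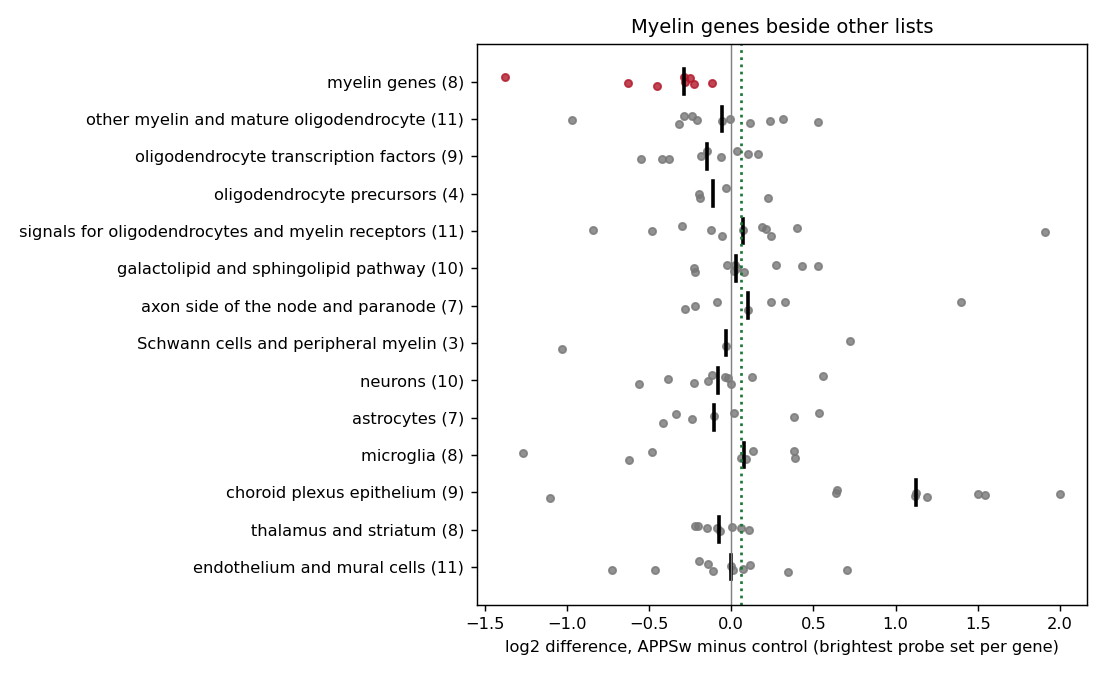
Log2 difference (APPSw minus control) of each measured gene, by its brightest probe set, for the myelin genes (red) and the other lists (grey), with the number of genes in brackets, a black bar at each list's median and a dotted line at the median of all probe sets. All 8 myelin genes lie below 0, Cnp by signals under the filter, and the high choroid plexus values come from APPSw 1.

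Markers of other cells in the tissue were set beside these values. Neuronal markers had a median of -0.077 over 10 genes, astrocyte markers -0.11 over 7, microglial markers 0.075 over 8, and endothelial and mural markers -0.0011 over 11. In that order, APPSw 2 was the lowest array for 5, 2, 2 and 2 genes, and control 2 the highest for 5, 1, 1 and 2. Markers of thalamus and striatum, regions next to hippocampal white matter, had a median of -0.076 over 8, with APPSw 2 lowest for 3 and control 2 highest for 4. The 3 measured genes of Schwann cells, the myelinating cells of nerves, had a median of -0.030. Of those 3 only Pmp22 passed the filter, and the median is its value, with Egr2 at -1.03 and Foxd3 at 0.72. Choroid plexus markers had 1.12 over 9, with summed signals of 142252 on APPSw 1 and 18945 on APPSw 2, against 25115 and 16409 in controls, and 8 of the 9 were highest on APPSw 1. The summed signal of the 14 myelin probe sets was 131850.5 on APPSw 1 and 112623 on APPSw 2, against 137870.4 and 146665 in controls. The part of these cell types in the myelin values was not tested, and no test of the difference between lists was made.

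The probe sets most like the median myelin pattern were found by the distance between centred log2 signals over the 4 arrays, among 6720 tested probe sets of other named genes. The nearest were Gria2, a glutamate receptor subunit of neurons, Tmem50b, Rab5if, Gabarap, which acts in autophagy and receptor trafficking, and Chia1, with distances of 0.037 to 0.047. Gria2 had 51693 and 45557 in APPSw mice and 54679 and 58914 in controls. Qdpr ranked 99th and Erbb3, a neuregulin receptor, 168th, the closest genes of the oligodendrocyte, lipid and node lists, named here after their values were seen. Of the myelin probe sets themselves, Mobp 99047_at at 0.064, Mbp 96311_at at 0.090 and Mobp 99046_at at 0.12 lay nearest to their own median, and Cnp at 1.16 furthest.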

How the data were processed

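Total RNA of the hippocampus was measured on 4 Affymetrix arrays, 2 per group, grouped by the sample titles. Per the labels, the authors used MAS 5.0 to obtain the deposited signal intensities, on a linear scale with an array target of 2500 (0 values at or below 0). The sources used here do not name the chip or scanner. Control probe sets of the manufacturer (66 of 12488) were left out. The platform annotation gave 10833 probe sets 1 symbol, 396 several and 1193 none, and only single-symbol probe sets were named. No further normalization was applied. Log2 signals were fitted with limma 3.58.1 in R 4.3.3 (lmFit, eBayes, 2 residual and 3.70 prior degrees of freedom), without pairing. The fit was also run on data simulated from its own variance model with normal noise. Such data meet its assumptions, so that run does not show how the fit performs on these arrays. Values of a probe set differ from those of another in probe affinity, so levels were not compared between genes. For each oligodendrocyte, signal, lipid and node list, up to 4 genes with the highest and lowest moderated statistics were named, by the brightest probe set, and the 5 nearest genes by pattern. Marker lists of other cells are given as lists. The members, lists and rules were chosen with earlier results of these data known. The number of arrays limits the precision.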

Additional observations from a re-analysis of the deposited data

How the results depend on the processing

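With limma, 0 probe sets of the whole table and 0 myelin probe sets passed the adjusted threshold under every alternative run (an intensity trend, the replicate block, a pseudocount of 250, the floor of 250, quantile normalization, a stricter 60th percentile filter or none, and each array left out), while 600 of 7453 had an unadjusted p under 0.05. The lowest adjusted p of a myelin probe set was 0.453 to 0.961 over these. Arrays with the same number share only that number (correlation of their deviations -0.02), and with the replicate block 0 myelin probe sets passed (lowest adjusted p = 0.646). The median log2 difference of the 14 myelin probe sets, -0.26, was -0.26 after quantile normalization, -0.24 with the floor, -0.25 with the pseudocount, -0.26 over those past the filter and -0.28 over those without a letter in the identifier, the last 2 chosen after seeing the data. It ranged from -0.34 to -0.15 with an array left out and from -0.28 to -0.25 with a gene left out. By 1 value per gene it was -0.29, -0.45 to -0.16 with an array left out, and -0.27 with the mean over a gene's probe sets. The median of the other oligodendrocyte genes, -0.054, ranged from -0.26 to 0.076 with an array left out. Signs turned in 4 of 48 values of single tested probe sets with an array left out, and in 0 of 36 with another scaling, floor or pseudocount: Mbp 96310_at was 0.13 without APPSw 1 and 0.057 without control 2 (range -0.21 to 0.13), Mog 0.0048 without APPSw 2 (range -0.50 to 0.0048) and Mobp 100536_at 0.026 without APPSw 2 (range -0.26 to 0.026). The causes were not tested. Signals near the filter (Ugt8a) and under it (Cnp, Cldn11 161529_r_at) moved most with the floor or the pseudocount.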
